A study of Mus musculus with 4 samples.

Results

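The genes described here are 10 genes of the smooth muscle contractile apparatus and of the myofibroblast, the contractile state that fibroblasts can take in wounds: Acta2, Actg2, Myh11, Myl9, Tpm1, Tpm2, Cnn1, Tagln, Des and Lrrc15. They were taken by symbol, and all 10 were found among the 32285 genes listed for each library. The data were counts of unique molecular identifiers (UMIs, tags that mark single RNA molecules) per gene and cell in 4 single-cell libraries of the mouse digit. The digits came from wild-type FVB/NJ mice, 8 weeks old, with males and females pooled per the labels. Each of the 4 groups was 1 library: unamputated P2 digit (the middle phalanx), and fibrosing P2 digit at 12, 17 and 28 days post-amputation (dpa). Amputation at this level is not followed by regrowth, per the series' design text, and no number of animals per library was given in the sources used here. Live cells that excluded propidium iodide were sorted after digestion with trypsin and collagenase I, so cells that did not survive these steps were not measured.

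Smooth muscle contracts when filaments of actin slide along filaments of myosin. Acta2 and Actg2 encode smooth muscle actins, Myh11 encodes the smooth muscle myosin heavy chain, and Myl9 a regulatory light chain whose phosphorylation starts contraction. Tpm1 and Tpm2 encode tropomyosins, which lie along the actin filament, Cnn1 (calponin) and Tagln (transgelin) encode actin-binding proteins, and Des (desmin) encodes the intermediate filament of muscle cells. Blood vessels carry these proteins in their mural cells, which are the vascular smooth muscle cells of larger vessels and the pericytes of small ones. A wound fibroblast that takes up Acta2 is called a myofibroblast, and Lrrc15, a membrane protein with leucine-rich repeats, has been used as a marker of such cells.

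The total was between 92313847 and 197140774 UMIs per library over 8813 to 16045 barcodes, and 34951 cells were kept. Median depth of kept cells was 11630.0, 9545.0, 8511.0 and 6654.0 UMIs in the unamputated, 12, 17 and 28 dpa libraries, the order used throughout. Of every pair of libraries, 0.184% to 0.435% of kept barcodes of the smaller one were shared. Against the label of pooled sexes, Xist was at 458 CPM (the level of a gene scaled to a common library total) in the 12 dpa library and at 0.153 CPM or less in the others, and 4 Y-linked genes were at 0.228 CPM there and at 244 CPM or more elsewhere. The sex of its cells and the time point therefore cannot be told apart for the 12 dpa library. With 1 library per time, no test between times was possible and no difference between times has a replicate check.

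Cells were sorted into 15 classes by clustering and by markers that held none of the 10 genes, which were also left out of the clustering together with 24 other smooth muscle genes. Class names stand for cells that carry the class's markers. Mural cells, which are the vascular smooth muscle and pericyte classes together, numbered 1442, 773, 1250 and 1647. Fibroblasts numbered 843, 690, 1652 and 2247, and tenocytes, the fibroblasts of tendon, 497, 1417, 284 and 356. Levels are CPM of the summed UMIs of a class, and since each UMI stands for the 3′ end of 1 molecule, no scaling by gene length was made.

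Promoter sequence is shown first because several of these genes are known targets of serum response factor (SRF), which binds the CArG box, and of TEAD factors, which bind the MCAT motif. RefSeq promoter sequences (GRCm38.p6) were held for 7 of the 10 genes, and Tagln, Myh11 and Actg2 were not among them. In the 250 bases before the start, the Acta2 promoter held 2 CArG-like boxes and 1 MCAT motif, Myl9 held 1 CArG box and 1 CArG-like box, and Tpm1 held 1 MCAT motif. A CArG box was CC, 6 bases of A or T, and GG, read the same on both strands. A CArG-like box had G or C at 1 of those 6 bases, and MCAT was CATTCC or its reverse complement GGAATG. The motifs are in capitals in the following stretches of 30 bases, written on the strand of the gene.
Acta2, chr19:34255438-34255467, minus strand, CArG-like: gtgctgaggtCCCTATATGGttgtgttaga
Acta2, chr19:34255388-34255417, minus strand, CArG-like: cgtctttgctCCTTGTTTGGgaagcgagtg
Acta2, chr19:34255502-34255531, minus strand, MCAT: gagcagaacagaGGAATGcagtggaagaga
Myl9, chr2:156775293-156775322, plus strand, CArG: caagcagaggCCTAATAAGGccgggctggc
Myl9, chr2:156775355-156775384, plus strand, CArG-like: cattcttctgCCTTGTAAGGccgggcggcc
Tpm1, chr9:67049252-67049281, minus strand, MCAT: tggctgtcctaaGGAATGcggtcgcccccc
The stretches of Acta2 and Tpm1 also lie in an exon of another GENCODE transcript, and those of Myl9 do not. The same windows of Cnn1, Tpm2, Des and Lrrc15 held none of these letters. Among 32851 promoters of the same length, 1.47% held a CArG box, 7.24% a CArG-like box and 12.6% an MCAT motif. A match is a description of letters and shows no binding.

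Mural cells held the highest levels of 9 of the 10 genes in every library. Acta2, on chromosome 19 (34241090 to 34255590, GRCm38), was at 7704, 7517, 8019 and 9374 CPM in vascular smooth muscle cells and at 3036, 3270.4, 2584 and 3101 CPM in pericytes. It was at 517, 732, 355 and 127 CPM in tenocytes and at 72.8, 148, 33.4 and 80.2 CPM in fibroblasts. The ranges of vascular smooth muscle, pericytes and tenocytes did not overlap, whereas the highest fibroblast library was above the lowest tenocyte library. Osteoblasts were at 236 CPM in the unamputated library and at 26.1 and 25.4 CPM at 17 and 28 dpa, and the 12 dpa library held only 5 such cells. Over all immune cells, Acta2 was between 8.10 and 16.6 CPM, but at 17 dpa B or plasma cells were at 229 CPM (95 UMIs) and T or NK cells at 73.3 CPM (36 UMIs), both above the fibroblasts of that library.

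**Figure D1:**
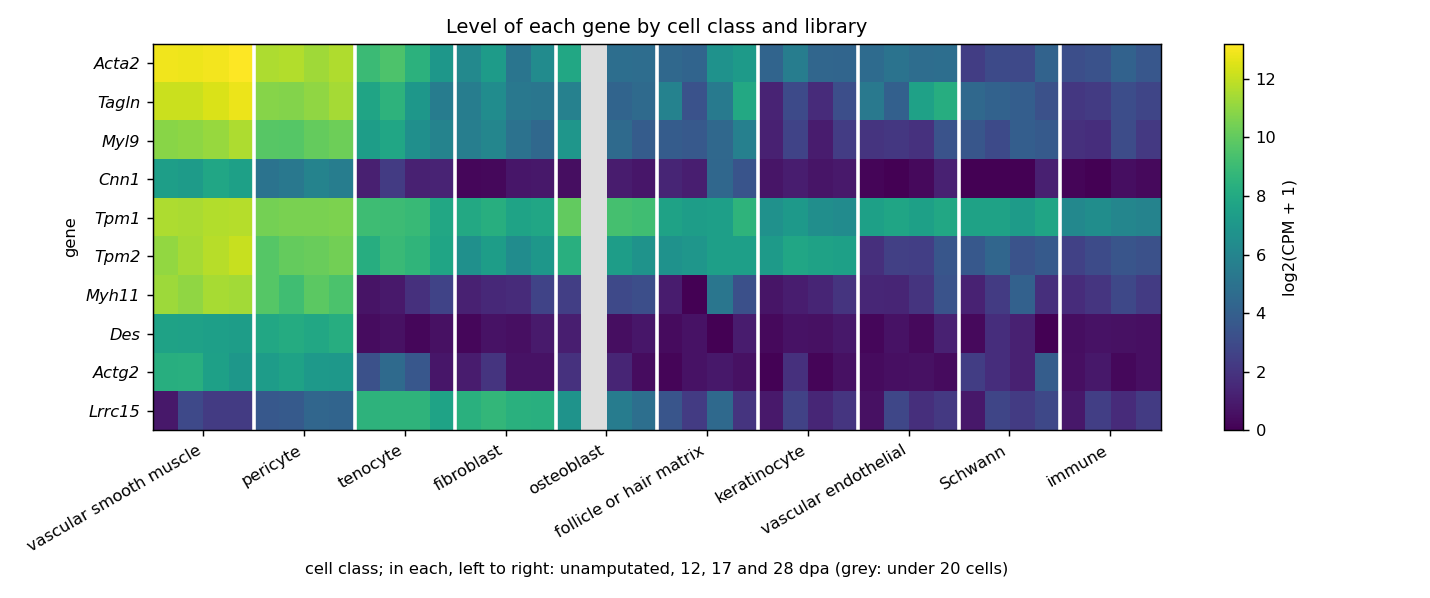
Level of each gene in 10 cell classes, as log2(CPM + 1) of summed UMIs, with the unamputated, 12, 17 and 28 dpa libraries from left to right in each class and grey where a class had under 20 cells. The 9 contractile genes are brightest in vascular smooth muscle and pericytes, whereas Lrrc15 is brightest in tenocytes and fibroblasts.

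Actg2 (chromosome 6, 83512905 to 83536265), the smooth muscle actin best known from the gut wall, was far lower than Acta2. It was at 306, 321, 181 and 127 CPM in vascular smooth muscle and at 157, 193, 135 and 129 CPM in pericytes, and the ranges of these classes overlapped. Tenocytes were at 8.62, 22.8, 11 and 0.757 CPM, the last from 3 UMIs, and fibroblasts at 1.03, 2.96, 0.576 and 0.569 CPM.

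Myosin genes were divided between a chain kept to mural cells and one spread more widely. Myh11 (chromosome 16, 14194535 to 14291372) was at 2488, 2072, 2874 and 2634 CPM in vascular smooth muscle and at 846, 567, 951 and 711 CPM in pericytes. In tenocytes it was at 0.641, 0.876, 2.57 and 5.30 CPM, from 9, 23, 14 and 21 UMIs, and in fibroblasts at 1.34, 1.82, 2.06 and 5.29 CPM. Immune cells, which should lack the gene, were at 2.17, 3.07, 6.24 and 3.89 CPM. At 17 dpa, 45 of their 88 UMIs came from 145 B or plasma cells, at 109 CPM. At 28 dpa the 95% counting interval of fibroblasts (4.39 to 6.32) overlapped that of immune cells (2.95 to 5.02). Where these UMIs came from was not tested. Myl9 (chromosome 2, 156775420 to 156781658) was at 1868, 1951, 2319 and 3002 CPM in vascular smooth muscle and at 871, 832, 1062 and 1247 CPM in pericytes. Tenocytes held 162, 222, 93.7 and 59.8 CPM of it and fibroblasts 48.9, 65.2, 29.9 and 21.2 CPM.

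The tropomyosins were also found well outside mural cells. Tpm1 (chromosome 9, 67022590 to 67049406) was at 3046, 2885, 3302 and 3445 CPM in vascular smooth muscle, at 1396, 1469, 1509 and 1566 CPM in pericytes and at 1028, 638 and 557 CPM in osteoblasts of the unamputated, 17 and 28 dpa libraries. Tenocytes were at 553, 523, 471 and 243 CPM and fibroblasts at 253, 308, 201 and 221 CPM. Every other class shown had some Tpm1, down to 57.9 to 88.3 CPM in immune cells. Tpm2 (chromosome 4, 43514711 to 43523765) was at 2104, 2737, 3482 and 4272 CPM in vascular smooth muscle and at 828, 1070.2, 1148 and 1346 CPM in pericytes. Tenocytes were at 297, 495 and 391 CPM in the unamputated, 12 and 17 dpa libraries and lower at 28 dpa. Keratinocytes held 147, 227, 191 and 177 CPM of Tpm2, which was above the fibroblasts of the same library (97.1, 160.0, 84.6 and 124 CPM) in all 4 libraries.

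The actin-binding genes differed in how far they reached. Tagln (chromosome 9, 45929619 to 45936058) was at 4548, 4451, 5518 and 7074 CPM in vascular smooth muscle and at 1781, 1694, 2056 and 2770.3 CPM in pericytes. Tenocytes were at 208, 367, 127 and 45.7 CPM and fibroblasts at 47.6, 84.0, 38.3 and 35.1 CPM. Vascular endothelial cells were at 38.9, 15.7, 189 and 295 CPM, above the fibroblasts of the 17 and 28 dpa libraries and below those of the other two. Cluster 28, 1 of the 4 clusters of the fibroblast class, gave 242 of 783, 530 of 797 and 326 of 803 fibroblast Tagln UMIs in the unamputated, 17 and 28 dpa libraries, from 60, 180 and 88 cells, and had no cells at 12 dpa. Its Tagln was at 305, 289 and 525 CPM, and none of the fibroblast markers was among its 10 leading genes, as in cluster 20, which is described with the fibroblasts below. Without it, Tagln in the remaining fibroblasts was at a log2 ratio to the unamputated library of 1.26 at 12 dpa and -1.24 at 17 dpa. Follicle or hair matrix cells held 57.3, 9.07, 41.1 and 247 CPM of Tagln, and at 28 dpa stood above tenocytes and fibroblasts, as their Acta2 did at 147 CPM. Cnn1 (chromosome 9, 22099216 to 22109630) was at 167, 149, 227 and 179 CPM in vascular smooth muscle, at 31.9, 37.3, 59.6 and 46.8 CPM in pericytes, at 1.21, 3.85, 1.29 and 1.51 CPM in tenocytes and at 0.787 CPM or less in fibroblasts. Follicle or hair matrix cells had more Cnn1 than tenocytes in the later libraries, at 20.1 CPM (13.2 to 29.5) at 17 dpa and 9.81 CPM (7.01 to 13.4) at 28 dpa. Tagln overlaps Pcsk7 and Gm48529 on the opposite strand, and whether the authors' counting used strand was not given in the sources used here.

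Des (chromosome 1, 75360329 to 75368579) was the member with its highest level in pericytes, at 237, 281, 238 and 296 CPM, against 192, 189.6, 171 and 162 CPM in vascular smooth muscle. The ranges did not overlap. It was at 0.919 CPM or less in tenocytes and fibroblasts. Des also marks skeletal muscle, and the 8 skeletal muscle markers together summed to at most 2.16 CPM in either mural class. Gm15179 overlaps Des on the opposite strand.

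Lrrc15 (chromosome 16, 30269302 to 30283256) had the opposite pattern. It was at 366, 383, 376 and 204 CPM in tenocytes and at 335, 432, 337 and 319 CPM in fibroblasts, and these ranges overlapped. Osteoblasts were next, at 108, 45.6 and 27.7 CPM in the unamputated, 17 and 28 dpa libraries. Pericytes were at 11.6, 12.3, 19.3 and 18.1 CPM, and vascular smooth muscle cells at 0.785, 6.43, 3.88 and 3.88 CPM, from 4, 6, 11 and 11 UMIs. Immune cells were at 0.802, 4.44, 2.05 and 3.82 CPM, a level that vascular smooth muscle did not clearly exceed.

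Cell classes were compared over the 4 libraries as replicates, with each library giving 1 sum to each class, by edgeR's quasi-likelihood test with Benjamini-Hochberg adjustment over all genes tested. A gene was called at an adjusted p under 0.05 and a difference of at least 2-fold. The classes were drawn from other genes of the same cells, so the p-values measure how steadily a difference recurred over libraries and not that the classes exist. The labels do not say how many animals a library held.

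Against fibroblasts, mural cells were higher in 9 of the 10 genes and lower in Lrrc15, where 13.0% of 14263 genes tested were called higher and 13.3% lower. The difference was largest for Myh11, at a log2 fold change of 8.91 (SE 0.382, n = 4, adjusted p = 1.17e-05), and for Des at 8.58 (SE 0.257, adjusted p = 4.70e-06). Cnn1 differed by 7.28 (SE 0.209) and Actg2 by 7.20 (SE 0.290). Acta2, the usual myofibroblast marker, differed by 5.83 (SE 0.418, adjusted p = 7.42e-05), Tagln by 5.84, Myl9 by 5.03 and Tpm2 by 3.76. Tpm1 had the smallest difference of the 9, at 2.91 (SE 0.187, adjusted p = 4.84e-05). Lrrc15 was at -5.11 (SE 0.173, adjusted p = 5.69e-06). In the single libraries the Acta2 ratio ran from a log2 of 4.72 at 12 dpa to 7.05 at 17 dpa, and every library had the same sign for each of the 10 genes.

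Against tenocytes the same 9 genes were higher and Lrrc15 lower, with 14.8% of 13171 genes called higher and 14.0% lower. Acta2 differed by a log2 of 3.36 (SE 0.481, adjusted p = 0.000667), Tagln by 4.04, Myl9 by 3.22, Tpm2 by 2.06 and Tpm1 by 1.95 (adjusted p = 0.000535). Myh11, at 9.26, and Des, at 8.89, again had the largest differences. In fibroblasts and tenocytes Des was at 0.919 CPM or less, and in immune cells at 0.401 to 0.569 CPM. Myh11 was at 0.641 to 5.30 CPM in fibroblasts and tenocytes and at 2.17 to 6.24 CPM in immune cells. The fold changes of both genes against either class are therefore no measure of size. Against all cells that were not mural, 9 genes were higher and Lrrc15 was lower, with 11.6% of genes called higher and 21.0% lower. There Acta2 differed by 5.72, Tpm1 by 3.16 and Lrrc15 by -3.52.

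Other genes of smooth muscle were read beside the members. Of the other lists only the smooth muscle genes were left out of the clustering, so the remaining lists describe the classes and test nothing independent of them. Of 24 further genes of the contractile and anchoring apparatus, 20 were higher in mural cells than in fibroblasts and none lower, with a median log2 of 2.68 against 0.0055 over all genes tested. Kcnmb1, a subunit of the calcium-activated potassium channel of smooth muscle, was at 29.6 against 0.0145 CPM, the latter from 1 UMI, so that its fitted log2 of 10.23 is no measure of size. Mrvi1, a partner of cGMP-dependent protein kinase, differed by 8.16 and Lmod1, which nucleates actin filaments, by 7.82. The 3 smallest differences among genes of at least 20 CPM were Synm at 0.79, Tns1 at 0.71 and Pdlim7 at 0.46, all under 2-fold. Of 16 genes of the non-muscle actin and myosin apparatus, 3 were higher in mural cells and 2 lower. The 3 were Cnn2 (1.54), Myh9 (1.41) and Myl6 (1.16), and Myh10, a non-muscle myosin heavy chain, was lower by a log2 of -3.15.

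The matrix genes of myofibroblasts had the same direction as Lrrc15. Of 18 such genes, none was higher in mural cells than in fibroblasts and 14 were lower, with a median of -2.73. Cthrc1, a secreted protein of activated fibroblasts, differed by -6.72, Fbn2, a fibrillin, by -5.30 and Col11a1, a fibrillar collagen, by -4.99. Acan at 0.99 and Tnc at -0.59 did not pass the test (adjusted p = 0.186 and 0.303).

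Within mural cells, vascular smooth muscle was higher than pericytes in 7 of the 10 genes and lower in 1, where 5.73% of 12303 genes were called higher and 6.02% lower. Among the 7 higher genes Cnn1 differed most, by a log2 of 2.17 (SE 0.101, n = 4, adjusted p = 2.91e-08). Myh11 followed at 1.82 (SE 0.083), Tpm2 at 1.58, Acta2 at 1.54 (SE 0.088, adjusted p = 1.49e-07), Tagln at 1.47, Myl9 at 1.27 and Tpm1 at 1.19. Actg2, at 0.63 (adjusted p = 0.00343), and Des, at -0.46 (adjusted p = 0.00376), passed the p threshold but not 2-fold, and Lrrc15 was at -2.32 (SE 0.303, adjusted p = 0.000105). Of the other 24 smooth muscle genes, 14 were higher and none lower, with a median of 1.02. Ldb3, a Z-disc protein, at 2.91, Pdlim3 at 2.49 and Smtn (smoothelin) at 2.47 had the largest differences. Of the 18 matrix genes, 2 were higher and 9 lower, with Acan at 4.66 and Postn at -2.13 at the ends. Marker sums of the classes were high in both: the 9 pericyte markers summed to 6714 to 11835 CPM in vascular smooth muscle and 11128 to 16286 CPM in pericytes, while the 9 smooth muscle markers summed to 2371 to 4036 and 777 to 1479 CPM.

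Tenocytes and fibroblasts, which both carry Lrrc15, differed in most of the contractile members. Tenocytes were higher in 6 of the 9 members tested and lower in none, where 4.06% of 14109 genes were called higher and 6.82% lower. Actg2 differed by a log2 of 3.15 (SE 0.427, n = 4, adjusted p = 0.00254), Acta2 by 2.47 (SE 0.430, adjusted p = 0.00635) and Cnn1 by 2.07 (SE 0.553, adjusted p = 0.0274). Myl9 differed by 1.79 (SE 0.122, adjusted p = 0.000258), Tagln by 1.76 and Tpm2 by 1.70. Tpm1, at 0.95 (adjusted p = 0.0144), stayed under 2-fold, Myh11 was at -0.27 (adjusted p = 0.545), and Des had too few counts to be tested. Lrrc15 differed by 0.00 (SE 0.183), and its p does not show that the classes are alike. In the single libraries the Acta2 ratio was at a log2 of 2.81, 2.30, 3.37 and 0.65, Tagln at 2.10, 2.11, 1.71 and 0.37, Actg2 at 2.24, 2.59, 2.93 and 0.16 and Tpm2 at 1.60, 1.62, 2.20 and 0.80. All 4 were lowest, and under 2-fold, in the 28 dpa library, whereas Myl9 was at 1.45 to 1.75 in every library. The call on Cnn1 was lost without the unamputated library (adjusted p = 0.108) and without the 12 dpa library (adjusted p = 0.0877). Without the 28 dpa library, Tpm1 was called too, at 1.21 (adjusted p = 0.00254).

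The neighbouring genes did not all go with the 6. Of 22 other smooth muscle genes tested, 5 were higher in tenocytes and 5 lower, with a median of -0.31. Nexn, a filament-binding protein, was at 1.41, Actn1 at 1.12 and Cald1 (caldesmon) at 1.12, whereas Tns1 was at -1.24. Of the 18 matrix genes, 9 were higher and none lower, with a median of 0.98. Acan, the proteoglycan of cartilage and fibrocartilage, was at 4.16 and Col11a1 at 3.42, and Col11a1 and Acan were also among the leading genes of the tenocyte cluster.

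The level of Acta2 per UMI of Myh11 was set beside the classes, since Myh11, with Des, had the largest share of its UMIs in mural cells. In mural cells there were 3.30, 4.91, 2.76 and 3.81 UMIs of Acta2 per UMI of Myh11. In macrophages and monocytes, which should lack both, there were 4.18, 2.91, 2.96 and 3.13. Tenocytes held 806 (95% interval 424 to 1764), 835 (557 to 1318), 138 (81.9 to 253) and 23.9 (15.5 to 39.0), all above mural cells. Fibroblasts held 54.5, 81.4, 16.2 and 15.1. Osteoblasts held 53.4 in the unamputated library but 4.06 (2.76 to 6.14) and 3.19 (1.93 to 5.49) at 17 and 28 dpa, where the intervals met the mural range. Ratios above the mural range were also seen in other classes. Keratinocytes held 25.6, 43.4, 12.5 and 6.39, vascular endothelial cells 13.8, 19.7, 8.55 and 2.86, and follicle or hair matrix cells 20.6, 2.91 and 17.7 in the unamputated, 17 and 28 dpa libraries. The fibroblast value lay inside the interval of keratinocytes at 12 dpa (21.8 to 101) and 17 dpa (6.95 to 24.7). It also lay inside that of vascular endothelial cells at 17 dpa (4.56 to 17.7) and of follicle or hair matrix cells at 28 dpa (12.5 to 25.8). The last interval held the tenocyte value at 28 dpa too. These intervals and all others below cover counting error only.

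**Figure D2:**
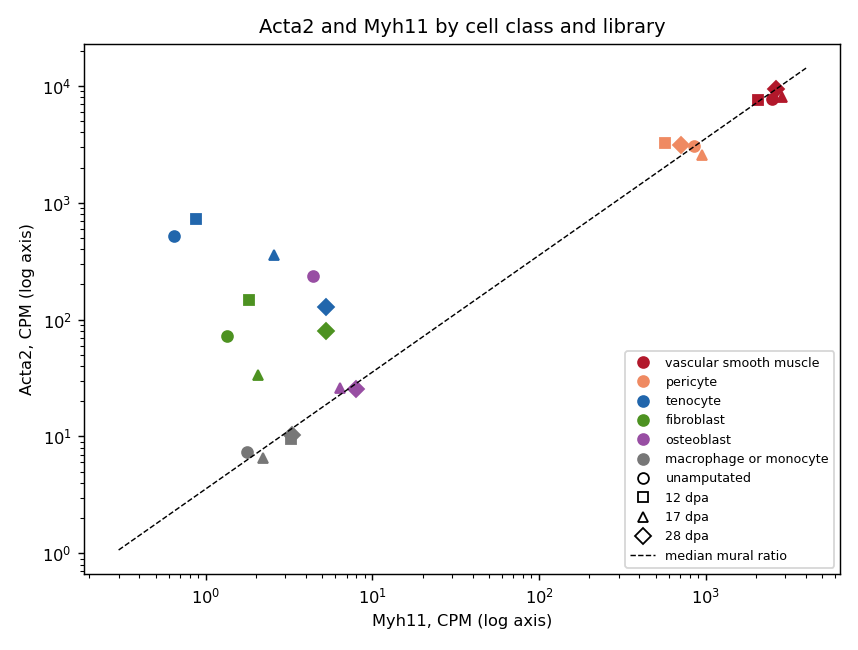
Acta2 against Myh11 level in CPM on log axes, with 1 point per library for 6 cell classes and a dashed line at the median mural ratio of 3.55. Macrophages and the later osteoblast libraries lie near the line of the mural cells, and tenocytes, fibroblasts and the unamputated osteoblasts lie above it. Keratinocytes, endothelial and follicle cells, some also above the line, are not drawn.

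Shares of cells with a UMI were compared after each cell was thinned to 2000 UMIs. Acta2 was seen in 91.2% to 98.0% of vascular smooth muscle cells and in 71.7% to 83.4% of pericytes. In tenocytes it was seen in 40.8%, 44.9%, 30.1% and 18.6% of cells. In fibroblasts it was seen in 5.29% (95% Clopper-Pearson interval 3.87 to 7.03), 14.8% (12.2 to 17.7), 4.14% (3.22 to 5.22) and 7.67% (6.59 to 8.86). The 12 dpa share stood apart from the other 3, and that of 28 dpa was above that of 17 dpa. Without thinning, the fibroblast shares were 26.5%, 37.0%, 15.9% and 24.3%, at median depths of 18776.0, 11679.0, 12072.5 and 8900.0 UMIs, and 11, 14, 32 and 43 shallower cells had been left out.

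Classes that should lack Acta2 were read beside these shares, and the source of their UMIs was not tested. Macrophages and monocytes, at median depths of 7044 to 10036 UMIs, had Acta2 in 1.29%, 1.99%, 1.18% and 2.20% of thinned cells, below the fibroblasts of the same library in all 4. Neutrophils had it in 3.23% (1.86 to 5.20) of the unamputated and 5% (2.42 to 9) of the 17 dpa cells, which overlapped the fibroblast intervals there. T or NK cells had it in 2.29%, 0 of 138 cells (which allows up to 2.17%), 1.98% and 8.77%, the last being 5 of 57 cells (2.91 to 19.3). B or plasma cells had it in 2.65%, 3.60% and 8.70% of the unamputated, 17 and 28 dpa cells, on 4 or 5 cells each. The fibroblast shares at 17 and 28 dpa were thus not above the share in every class that should lack Acta2. Among immune classes, only macrophages and T or NK cells were set beside the fibroblasts at 12 dpa. Thinned keratinocytes with and without Acta2 there numbered 24 and 438, and vascular endothelial cells 32 and 702. The fibroblast share at 12 dpa was 19.2% (15.4 to 23.3) in cluster 20, described below. It was 7.30% (3.56 to 13.0) in cluster 16 and 9.49% (5.15 to 15.7) in cluster 19. Clusters 16 and 19 held 10 and 13 cells with Acta2 and 127 and 124 without. They were not tested against keratinocytes or endothelial cells. Myh11 was seen in 0 of 493 and 0 of 1415 thinned tenocytes in the unamputated and 12 dpa libraries, which allows shares of up to 0.609% and 0.212% of cells with a UMI at that depth (3 counts of the total), and in 1.06% and 1.13% at 17 and 28 dpa. Before thinning, 1.81%, 1.41%, 2.82% and 3.09% of tenocytes had a UMI of it. Lrrc15 was seen in 44.6%, 47.2%, 41.1% and 28.7% of tenocytes and in 33.8%, 41.0%, 33.0% and 32.4% of fibroblasts, against 0.203% to 0.703% of macrophages.

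Thinned tenocytes with Acta2 had Tagln in 32.8%, 44.6%, 24.7% and 18.2% of cells, and those without it in 14.7%, 13.5%, 6.09% and 1.73%. Lrrc15 was seen in 61.4%, 62.0%, 52.2% and 45.0% of fibroblasts with Acta2 and in 32.2%, 37.3%, 32.2% and 31.4% of those without. For Tagln in tenocytes the share was higher in cells with Acta2 in all 4 libraries. For Lrrc15 in fibroblasts this order held over the whole class but not within each of its clusters. In cluster 16, Lrrc15 was seen in 40.0%, 29.4% and 6.45% of cells with Acta2 and in 44.1%, 30% and 16.1% of those without at 12, 17 and 28 dpa. Cells with Acta2 there numbered only 10, 34 and 31. Their intervals (12.2 to 73.8, 15.1 to 47.5 and 0.791 to 21.4) overlapped those of cells without it, so no opposite order was resolved. In cluster 19, Lrrc15 was seen in 46.2% (6 of 13 cells) against 47.6% at 12 dpa and in 62.9% against 53.2% and 53.9% against 45.9% at 17 and 28 dpa. In cluster 20 it was seen in 73.8% against 44.4% in the unamputated library and 55.8% against 44.0% at 12 dpa. In tenocytes, Lrrc15 was seen in 43.3%, 54.0%, 47.1% and 37.9% of cells with Acta2 and in 45.5%, 41.7%, 38.6% and 26.6% of those without, so the unamputated library had the opposite order.

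Differences between times within a class were read as log2 ratios to the unamputated library, after adding 1 CPM, for members of at least 5 CPM in either library, with an interval from the counts. In mural cells none of the 10 members was past 2-fold at 12, 17 or 28 dpa, where 1.94%, 0.662% and 2.06% of genes were past it upward and 2.04%, 0.634% and 3.18% downward. Acta2 in mural cells was at 4544, 3925, 4554 and 5465 CPM, and Tagln at 2675, 2119, 3311 and 4392 CPM. Tpm2 at 28 dpa came nearest to 2-fold, with mural levels of 1241, 1327, 1994 and 2449 CPM. The vascular smooth muscle class made up 28.4%, 14.9%, 33.4% and 37.3% of mural cells, so levels over all mural cells also follow this mix.

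Within vascular smooth muscle, the tropomyosin Tpm2 and the actin Actg2 stood apart at 28 dpa. Tpm2, at the levels given above, was higher by a log2 of 1.02 (0.98 to 1.06), with 2.48% of genes past 2-fold upward. Actg2 was lower by -1.27 (-1.43 to -1.10), with 5.66% past it downward. The 4 libraries of Tpm2 were in the order of time, in pericytes as well, where those of Tpm1 were too. Median depth of the vascular smooth muscle class fell in that order, at 11353.0, 7699.0, 6536.0 and 4255.0 UMIs, so time and depth cannot be told apart. Myl9 in vascular smooth muscle was also in the order of time, with a log2 ratio at 28 dpa of 0.68. Acta2 was at 0.28, Myh11 at 0.08 and Des at -0.25 in the same comparison. At 12 dpa, Lrrc15 was past 2-fold on 6 against 4 UMIs (2.06, interval 0.64 to 3.07), where 2.68% of genes were past it upward and 4.15% downward, and no other member was. It reached 5 CPM only at 12 dpa. At 17 dpa none was, where 1.29% of genes were past 2-fold upward and 1.79% downward. Between 28 and 17 dpa none of 9 members tested was either, where 1.38% and 2.31% of genes were. In pericytes no member was past 2-fold at any time, where 0.758% to 3.42% of genes were, and Cnn1 at 17 dpa came nearest, at 0.88 (0.65 to 1.10). Pericytes were made of clusters 14 and 15, and cluster 14 gave 45.8%, 69.1%, 32.6% and 29.8% of mural cells and cluster 15 gave 25.7%, 16.0%, 34.0% and 32.8%. Within cluster 14, 1 member was past 2-fold upward at each time, where 2.34%, 1.52% and 2.56% of genes were. It was Cnn1 at 12 dpa, at 1.37 (0.92 to 1.83) with 22.8 against 8.19 CPM, and Lrrc15 at 17 dpa, at 2.01, and at 28 dpa, at 1.29. Lrrc15 there reached 5 CPM only through the later libraries. Between 28 and 17 dpa it was Tagln, at 1.01 (0.94 to 1.09), where 1.69% of genes were past 2-fold upward. Within cluster 15, none of the 10 members was past 2-fold in any of these comparisons, where 1.29% to 5.68% of genes were in either direction.

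**Figure D3:**
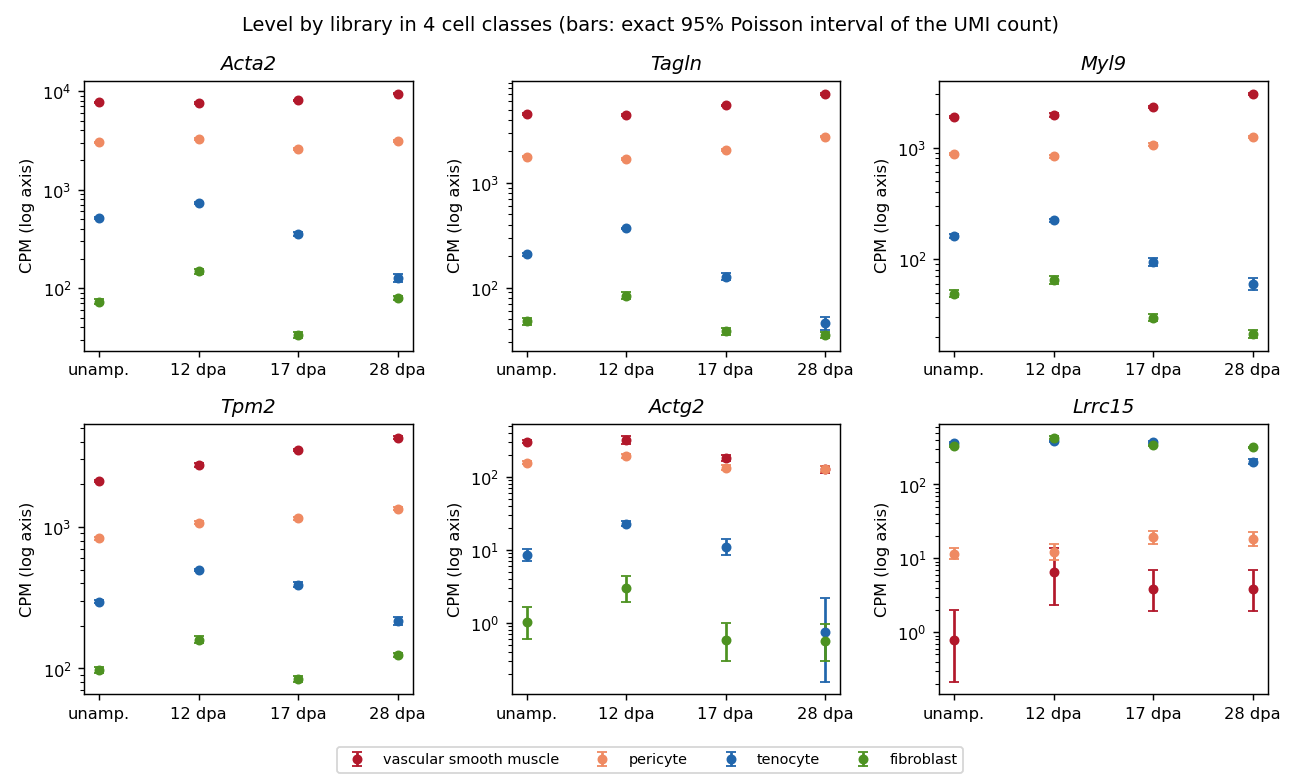
Level in CPM on log axes of 6 genes in 4 cell classes by library, with bars of the exact 95% Poisson interval of the UMI count. Acta2, Tagln, Myl9, Tpm2 and Actg2 in tenocytes are highest at 12 dpa and lowest at 28 dpa, whereas Acta2 in vascular smooth muscle stays between 7517 and 9374 CPM.

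Of the classes compared between times, tenocytes had the most members past 2-fold. The class was mixed differently in each library, and values within 1 cluster of it are given after those of the whole class. At 28 dpa, 5 of the 8 members of at least 5 CPM were lower than in the unamputated library and 1 was higher, where 6.08% of 10507 genes were past 2-fold downward and 4.44% upward. Acta2 had 7256 UMIs in the unamputated and 502 in the 28 dpa library, and was lower by a log2 of -2.02 (-2.15 to -1.89). Tagln was lower by -2.16 (-2.38 to -1.95), Myl9 by -1.43 (-1.62 to -1.23) and Tpm1 by -1.18 (-1.28 to -1.09). Actg2, on 3 against 121 UMIs, was lower by -2.45 (-3.08 to -1.54), and it reached 5 CPM only through the unamputated library. The other 4 were above 5 CPM in both libraries. Tpm2 was at -0.45 and Lrrc15 at -0.84 (-0.95 to -0.74), both within 2-fold. With no doublet removal Tpm1 was at -0.83 and Actg2 at -0.69, also within it, and Acta2 at -1.20.

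The exception was Myh11, higher at 28 dpa by 1.94 (1.23 to 2.5) on 21 against 9 UMIs. It reached 5 CPM only through the 28 dpa library and had to differ for that. It stood at -1.05 when no doublets were removed, and cells without a UMI of a mural marker held none of it in either library. Those cells numbered 79 in the unamputated and 74 in the 28 dpa library. Their counts of 0 allow up to 2.03 and 5.87 CPM, above the 0.641 and 5.30 CPM of the whole class. They therefore do not show that these cells lacked Myh11. Against the 17 dpa library, 3 members were past 2-fold downward at 28 dpa and none upward, where 3.43% and 2.88% of genes were. The 3 were Acta2, Tagln and Actg2, and 5 other members were within 2-fold. Actg2, on 3 against 60 UMIs, reached 5 CPM only through the 17 dpa library.

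At 12 dpa, 1 of 7 members in tenocytes was past 2-fold, where 0.457% of genes were past it upward and 1.00% downward. It was Actg2, at 22.8 against 8.62 CPM, a log2 of 1.31 (1.05 to 1.57). Tagln was at 0.82, Tpm2 at 0.73, Acta2 at 0.50, Myl9 at 0.45 and Tpm1 at -0.08. At 17 dpa none of 7 was past 2-fold, where 1.41% and 1.22% of genes were, with Myl9 at -0.79 and Tpm2 at 0.40 at the ends. The 12 dpa library thus had the highest level of Acta2, Tagln, Myl9, Tpm2 and Actg2 in tenocytes and the 28 dpa library the lowest.

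The tenocyte class itself differed between the libraries. It made up 4.78%, 21.8%, 3.59% and 3.52% of kept cells, at median depths of 26209.0, 16774.0, 17217.5 and 10505.5 UMIs. Its 8 tenocyte markers summed to 2130.1, 2067, 2646 and 6771 CPM, the 9 pericyte markers in it to 106, 78.4, 167 and 313 CPM and the 9 vascular smooth muscle markers to 31.6, 22.4, 50.5 and 81.0 CPM, with Rergl at 0 in the unamputated, 12 and 28 dpa libraries. The part of depth and of the tenocyte markers in the result was not tested.

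Cells of the tenocyte class also fell into different clusters in each library. When they were split by the finer clustering at resolution 2, a step added after the data were seen, cluster 31, led by Fmod, C1qtnf3 and Ecrg4, held 30%, 59.1%, 51.1% and 91.6% of them. Cluster 28 of that clustering, led by Kif26b, Col24a1 and Fbn2, held 47.3%, 25%, 15.1% and 1.12%, with 4 cells at 28 dpa. The 28 dpa library was therefore also compared within cluster 31, the 1 cluster with at least 20 tenocytes in every library (149, 837, 145 and 326 cells). Within it, 5 of 7 members of at least 5 CPM were lower at 28 dpa than in the unamputated library and none was higher, where 4.79% of genes were past 2-fold downward and 4.52% upward. Acta2 was at 486, 743, 369 and 126 CPM, a log2 ratio at 28 dpa of -1.94 (-2.09 to -1.80). Tagln was at 207, 391, 135 and 44.4 CPM (-2.20), Myl9 at -1.51, Tpm1 at -1.15 and Actg2 at -1.84, on 3 against 21 UMIs and again of 5 CPM only through the unamputated library. Acta2, Tagln, Myl9, Tpm2 and Actg2 were highest at 12 dpa and lowest at 28 dpa within this cluster too, and Myh11 stayed under 5 CPM in it. In cluster 28, Acta2 was at 552, 622 and 454 CPM in the unamputated, 12 and 17 dpa libraries. At 12 dpa Actg2 was past 2-fold there as in cluster 31 (1.21 and 1.84), where 0.935% and 0.697% of genes were. In cluster 41 of that clustering, 3 of 8 members were past 2-fold upward at 12 dpa, on 109 against 36 cells, where 3.29% of genes were. In cluster 27, 1 of 7 was at 12 dpa and 1 of 7 at 17 dpa, where 3.95% and 4.36% of genes were.

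In tenocytes without any UMI of a mural marker (79, 451, 64 and 74 cells), Acta2 was at 589, 687, 258 and 153 CPM, a log2 ratio of -1.94 at 28 dpa.

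Other genes in 28 dpa tenocytes were read beside the members over the whole class, and not within 1 cluster of it. Fbn2 was a leading gene of cluster 28 at resolution 2, which held 47.3% of unamputated and 1.12% of 28 dpa tenocytes. The part of this mix of clusters in the ratios of these genes was not tested. Of 15 other smooth muscle genes of at least 5 CPM, 1 was past 2-fold upward and 2 downward, with a median log2 of -0.67 against -0.09 over all genes. Filip1l was at -1.29, Vcl (vinculin) at -1.20 and Synm at 1.09. Of 16 non-muscle genes, 3 were past 2-fold downward, which were Myh10 at -1.27, Myh9 at -1.14 and Cnn2 at -1.0. Of 18 matrix genes, 6 were lower and 1 was higher, with Adam12 at -3.08, Fbn2 at -2.67 and Postn at -2.42 the lowest. Postn, the periostin of healing and loaded connective tissue, was at 6099.5 CPM in the unamputated and 1142 CPM in the 28 dpa library. Of 12 skeletal muscle genes, 1 reached 5 CPM, Myl1, a myosin light chain of fast muscle, at 24.7 against 0.641 CPM (a log2 ratio of 3.97). The 8 skeletal muscle markers summed to 3.92, 4.34, 3.31 and 5.55 CPM in tenocytes, and their part in the result was not tested.

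In fibroblasts, no more than 2 members were past 2-fold at a time. At 12 dpa, 1 of 6 members of at least 5 CPM was, where 1.35% of genes were past it upward and 2.99% downward. It was Acta2, with a log2 ratio of 1.01 (0.90 to 1.13), and Tagln was at 0.81 and Tpm2 at 0.71. At 17 dpa it was Acta2 again, lower by -1.10 (-1.24 to -0.97), where 2.31% of genes were past 2-fold downward and 0.774% upward. At 28 dpa Acta2 was at 0.14 (0.03 to 0.24), Myl9 was lower by -1.17 (-1.33 to -1.01), and Myh11 was higher by 1.43 on 121 against 22 UMIs, where 8.16% and 3.15% of genes were. Myh11 again reached 5 CPM only at 28 dpa. These calls were near the limit of 2-fold or rested on the choice of cells: with no doublet removal Acta2 was at 0.96 at 12 dpa and -0.13 at 17 dpa, and Myl9 at -0.08 at 28 dpa. With the members allowed in the clustering, Acta2 was at 0.66 at 17 dpa. Lrrc15 in fibroblasts was within 2-fold throughout, at 0.36, 0.01 and -0.07. Between 28 and 17 dpa, 2 of 7 members were past 2-fold upward and none downward, where 1.33% and 3.34% of genes were. They were Acta2, at 1.24 (1.12 to 1.37), and Myh11, which reached 5 CPM only through the 28 dpa library. Acta2 in this comparison was higher in cluster 16 (1.48) and cluster 19 (0.54) of the class. It was lower in cluster 20 (-1.39), on 14 UMIs at 28 dpa against 71 at 17 dpa. Cluster 28 held 93 Acta2 UMIs in 88 cells at 28 dpa and 31 in 180 cells at 17 dpa. Fibroblasts without a mural marker UMI were 411 of 1652 at 17 dpa and 525 of 2247 at 28 dpa. In these cells Acta2 was at 29.6 and 34.3 CPM.

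These fibroblast ratios also follow the clusters within the class. Fibroblasts were made of 4 clusters, and cluster 20, led by Tmem132c, Kif26b and Col7a1, gave 24.7%, 59.7%, 4.48% and 2.45% of the class. It held 974 of the 1198 Acta2 UMIs of fibroblasts in the unamputated library and 1082 of 1302 at 12 dpa. Its Acta2 was at 239, 118 and 44.2 CPM in the unamputated, 17 and 28 dpa libraries. None of the fibroblast markers was among its 10 leading genes, and Kif26b, Col7a1, Crabp1, Col24a1 and Spock3 also led a tenocyte cluster at resolution 2, which held 410 and 718 cells in the unamputated and 12 dpa libraries, of which 235 and 354 were in the tenocyte class here. Cluster 16, led by Lsamp, Pi16 and Gdf10, was at 11, 42.5, 14.9 and 43.4 CPM. Cluster 19, led by Ccn3, Mfap5 and Clec3b, was at 31.1, 74.5, 64.5 and 94.0 CPM. Keratinocytes were at 18.0, 47.3, 19.6 and 18.9 CPM of Acta2, above cluster 16 in the unamputated, 12 and 17 dpa libraries. The keratinocyte level was highest at 12 dpa, and the source of those UMIs was not tested. At 12 dpa, the log2 ratio of Acta2 to the unamputated library was -0.17 (-0.30 to -0.05) in cluster 20, 1.85 (1.40 to 2.30) in cluster 16 and 1.23 (0.89 to 1.58) in cluster 19. At 28 dpa it was 1.88 in cluster 16 and 1.57 in cluster 19, and -2.41 in cluster 20 on 14 UMIs of 55 cells. At 17 dpa it was -1.02 in cluster 20, 0.41 in cluster 16 and 1.03 in cluster 19, so the lower level of the whole class at 17 dpa was not shared by clusters 16 and 19.

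Matrix genes in fibroblasts, read over the whole class and not within its clusters, differed in another way from Acta2 at 28 dpa. Of the 18, 1 was past 2-fold upward at 12 dpa, 6 were past it downward at 17 dpa, and 10 downward and 2 upward at 28 dpa, with medians of 0.32, -0.70 and -1.22. Fbn2 at -5.12, Adam12 at -3.23 and Col11a1 at -2.86 were the lowest at 28 dpa, and Ltbp2 at 1.45 and Fn1 at 1.23 were the 2 past 2-fold upward. Of 15 other smooth muscle genes of at least 5 CPM, 2 were past 2-fold in each direction at 28 dpa, Mylk, the myosin light chain kinase, at -2.06 and Synm at 1.15 among them. The pericyte markers in fibroblasts summed to 55.3, 80.8, 98.9 and 132 CPM and the vascular smooth muscle markers to 72.4, 56.1, 101 and 182 CPM, with Rergl at 0 throughout. Fibroblasts without a UMI of such a marker were 196 of 843, 265 of 690, 411 of 1652 and 525 of 2247 cells. In them Acta2 was at 50.6, 146, 29.6 and 34.3 CPM.

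**Figure D4:**
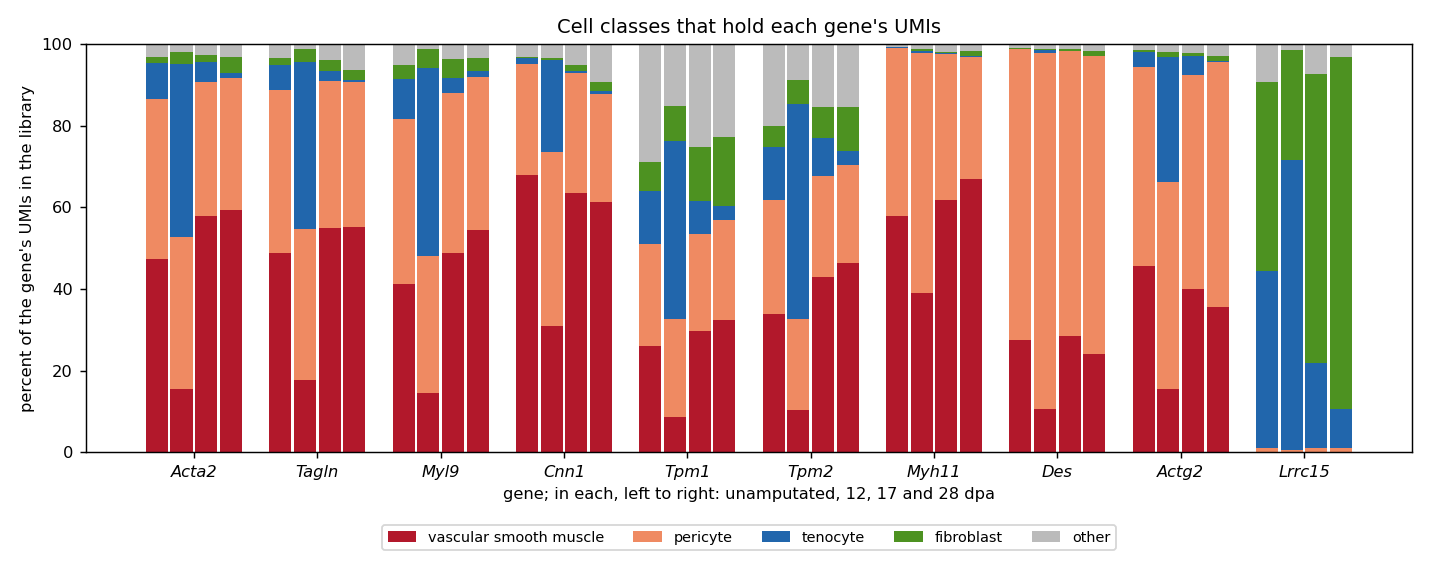
Percent of each gene's UMIs that came from each cell class, as stacked bars for the unamputated, 12, 17 and 28 dpa libraries from left to right. The tenocyte segment of Acta2, Tagln, Myl9, Tpm1 and Tpm2 is widest at 12 dpa, and Lrrc15 comes almost wholly from tenocytes and fibroblasts in all 4 libraries.

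The class from which a gene's UMIs came depended on the library. Mural cells gave 86.6%, 52.7%, 90.8% and 91.7% of all Acta2 UMIs, and tenocytes gave 8.77%, 42.6%, 4.92% and 1.12%. Fibroblasts gave 1.45%, 2.88%, 1.77% and 4.09%. At 12 dpa tenocytes also gave 41.0% of Tagln, 46.1% of Myl9, 43.7% of Tpm1, 52.7% of Tpm2, 30.7% of Actg2 and 22.5% of Cnn1 UMIs. Myh11 and Des were mural in every library, at 96.9% to 99.1% and 96.9% to 98.7% of their UMIs. For Lrrc15, tenocytes gave 43.3%, 71.1%, 20.7% and 9.54%, fibroblasts 46.4%, 26.9%, 70.9% and 86.1%, and mural cells 1.13% at most.

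Summed over all kept cells, Acta2 was at 582, 605, 501 and 569 CPM, a range narrower than in tenocytes or fibroblasts. In such sums fewer cells of a type and less RNA per cell cannot be told apart. At 12 dpa, 2 of the 10 members were past 2-fold, where 0.721% of genes were past it upward and 2.89% downward. Lrrc15 was at 83.6 CPM in the unamputated and 189 CPM in the 12 dpa library, a log2 ratio of 1.17 (1.14 to 1.21). Myh11 was at 154 and 66.3 CPM, a log2 ratio of -1.21 (-1.25 to -1.16). Neither stayed past 2-fold under the stricter filter on cells (0.96 and -0.99), and Myh11 did not with a mean over cells (-0.85) or with the median of genes of at least 20 CPM removed (-0.97). Vascular smooth muscle made up 3.94%, 1.77%, 5.28% and 6.07% of kept cells, and tenocytes and Lrrc15 both had their highest share and level at 12 dpa. No member was past 2-fold over all cells at 17 dpa (1.20% and 2.16% of genes) or 28 dpa (1.91% and 6.48%).

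The genes most like the members across 54 sums of 15 classes and 4 libraries were found by Pearson's r of log2(CPM + 1), as a description over sums that share libraries. For the mean of Acta2, Tagln, Myl9, Cnn1 and Myh11 they were Gm13861 (r = 0.94), Lmod1, Aoc3, Avpr1a, Carmn, Olfr558, Rgs4 and Foxs1 (r = 0.91). For Lrrc15 they were C1qtnf3 (r = 0.93), Svep1, Spon1, Itga11 and Itgbl1 (r = 0.91). C1qtnf3 was also the leading gene of the tenocyte cluster. Among the members, r ran from 0.64 to 0.95 within the 9 contractile genes and from -0.06 to 0.44 between them and Lrrc15.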

How the data were processed

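Values were whole-number UMI counts per gene and cell as the authors deposited them, made with Cell Ranger 7.1.0 on mm10, per the submitters' processing notes. The members, gene lists and tests were chosen with earlier results of these data known. Cells were required to have 500 genes or more, 1000 UMIs or more and no more than 10% of UMIs from mitochondrial genes. Doublets were taken out by Scrublet score, from the top down, at 0.8% of barcodes per 1000 barcodes. The libraries were clustered together in scanpy 1.11.5 (2000 variable genes, 30 components, 15 neighbours, Leiden resolution 1), giving 29 clusters. A cluster took the name of the class whose markers scored best, if 3 or more of them were found in 25% of its cells, and stayed unnamed where markers of a different class were more frequent among its top 10 genes. UMIs were summed per class and library. Classes were compared with edgeR 4.0.16 (quasi-likelihood test, TMM, library as a block), over libraries with at least 20 cells of both classes, and with DESeq2 1.42.0 as an alternative, after a test on simulated data. Ratios between times used a pseudocount of 1 CPM, a minimum of 5 CPM and intervals at 95% from the counts. Other listed genes named are the 3 highest and 3 lowest of at least 20 CPM, or some of them. Alternatives covered cell filters, doublets, resolution, the genes clustered, thinning, averaging, centring, pseudocounts and left-out libraries. Protein sequences of the members were not used here. Some listed genes are not reported here.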

Additional observations from a re-analysis of the deposited data

Results flagged for a closer look

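In 48 sets of 4 libraries, 2 held a library far from the other 3, where chance gives about 1 in 20. The log2 ratio of Cnn1 between vascular smooth muscle and pericytes was 2.35 in the unamputated library and 1.91 to 1.97 in the others. That of Tpm1 was 0.97 in the 12 dpa library and 1.12 to 1.14 in the others. Among 60 pairs of a member and classes looked at, Tpm1 went opposite ways in pericytes and tenocytes. Its log2 ratio to the unamputated library was 0.07, 0.11 and 0.17 in pericytes at 12, 17 and 28 dpa, and -0.08, -0.23 and -1.18 in tenocytes. With the median of genes of at least 20 CPM removed, the tenocyte value at 12 dpa was 0.11, so the opposite direction did not hold there. This difference between the classes was not tested.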

How the results depend on the processing

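Of 870 alternative values, 99 counts or shares were kept and 15 moved, and of the values of single members 707 were kept, 46 moved and 3 reversed. The count of 9 members higher in mural cells than in fibroblasts, tenocytes or all other cells, and of 7 higher in vascular smooth muscle than in pericytes, stood under every alternative run, each library left out included. Tenocytes were higher than fibroblasts in 5 to 7 members, the range over left-out libraries too. The call on Cnn1 there was also lost under the stricter filter (adjusted p = 0.0550), at Leiden resolution 2 (0.117) and with the members allowed in the clustering (0.124), all by edgeR's quasi-likelihood test with Benjamini-Hochberg adjustment. Reversed were Acta2 in fibroblasts at 17 dpa, at 0.66 when the members were allowed in the clustering, and Myh11 in tenocytes at 28 dpa, at -1.05 with no doublet removal. The third was Myh11 among tenocytes with no mural marker UMI, where neither library held a UMI of it, so its 0.00 shows no direction. Members past 2-fold in fibroblasts over the 3 times numbered 4, and 2 with no doublet removal or with a pseudocount of 5 CPM. In mural cells they numbered 0, and 1 under the stricter filter (1000 genes, 2000 UMIs, 5% mitochondrial), with no doublet removal, with a mean over cells or with the median ratio removed. Over all cells they numbered 2, and 0 under the stricter filter and 1 with the median removed. The share of fibroblasts with Acta2 was 2.36% (unamputated) and 7.75% (12 dpa) with members allowed in the clustering, 7.39%, 2.18% and 5.21% (12, 17 and 28 dpa) when thinned to 1000 UMIs, and 9.06% (28 dpa) with no doublet removal. It was 4.87% at 28 dpa among cells with no mural marker UMI, an alternative chosen after seeing the data, as were leaving out cluster 28 and keeping only the tenocytes of cluster 31 at resolution 2. Fewer UMIs per cell lower a share by construction, and for the rest the cause was not tested. The median log2 ratio of genes of at least 20 CPM was past 0.1 at 28 dpa in fibroblasts (-0.13), at 12 and 28 dpa in mural cells (-0.15 and -0.16), at 12 dpa in tenocytes (-0.19) and at all 3 times over all cells (-0.24, -0.11 and -0.18). No paired analysis was possible because each group held 1 library, which concerns the comparisons between times; those between classes had the library as a block. Depth limits Cnn1, Des, Actg2 and Myh11 outside mural cells.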
